A study of Homo sapiens with 6 samples.

Results

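The SOX genes described here are SOX3, SOX4, SOX5, SOX6, SOX8, SOX9, SOX11, SOX12, SOX13 and SOX15, a set of 10 that leaves out the core pluripotency factor SOX2, the SOX genes of endothelium and some further family members. They were chosen by symbol, and every probe set annotated to 1 of these symbols alone was taken, which gave 33 of the 54613 probe sets that are not array controls and 10 of 19775 genes. Transcripts were measured on 6 one-colour arrays, 3 with RNA of undifferentiated cells of the human embryonic stem cell (hESC) line H9 and 3 with RNA of mesodermal progenitors derived from H9. Per the labels, the progenitors had been grown in Stemline II medium with the growth factors VEGF, FGF2 and BMP4 and activin a and sorted on day 3.5 as CD326neg CD56+ cells, that is, for NCAM1 (CD56) and against EPCAM (CD326). The labels repeat the same growth text for the undifferentiated cells, whose medium and time in culture are therefore not known from it. All 6 samples come from 1 cell line, no unsorted cells of the same day are among them, and the labels do not tell whether replicates were separate cultures, so that p-values cover only the spread between these samples.

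SOX proteins bind DNA in its minor groove through an HMG box, bend it, and act together with partner transcription factors. They fall into groups by sequence. SOX3 belongs to group B1 with SOX1 and SOX2, and these factors keep neural and pluripotent cells undifferentiated. SOX4, SOX11 and SOX12 form group C, activators found in mesenchymal and neuronal progenitors. SOX5, SOX6 and SOX13 form group D, whose members carry no known activation domain and pair through a coiled coil. SOX8 and SOX9 belong to group E with SOX10 and act in neural crest, gonad and cartilage, where SOX5 and SOX6 assist SOX9. SOX15 is the single member of group G.

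The progenitors had more SOX9 and SOX5 transcript than hESC and less SOX3, SOX13 and SOX8. On the scale log2(intensity + 16) after quantile normalization, SOX9 was higher by 2.48 (SE 0.21, n = 3 per group) and SOX5 by 1.63 (SE 0.11), whereas the changes were -3.17 (SE 0.22) for SOX3, -2.14 (SE 0.10) for SOX13 and -0.995 (SE 0.17) for SOX8. SOX11 and SOX12 rose slightly, by 0.39 and 0.40. SOX6 and SOX15 gave answers that differed between their probe sets, and SOX4 did not pass on the probe set that stands for it. Each gene is represented by its brightest probe set, that with the highest mean over the 6 arrays.

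Of the 10 genes, 4 were higher and 4 lower in the progenitors and 2 did not pass, at a limma p adjusted over all genes of less than 0.05. Of all genes, 47.9% passed, 26.7% as higher and 21.2% as lower, so that changes were common among genes of any kind. The median log2 change of the 10 genes was -0.29, beside 0.04 for all genes. In 9 of the 10 the groups did not overlap, which was the case for 57.3% of all genes. Of the 33 probe sets 13 were higher, 8 lower and 12 not past the threshold. Over all probe sets 40.2% passed, 20.3% as higher and 20.0% as lower, and the groups did not overlap in 23 of the 33 against 51.2% overall. These are bulk samples, in which fewer cells of a type and less RNA per cell cannot be told apart.

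**Figure D1:**
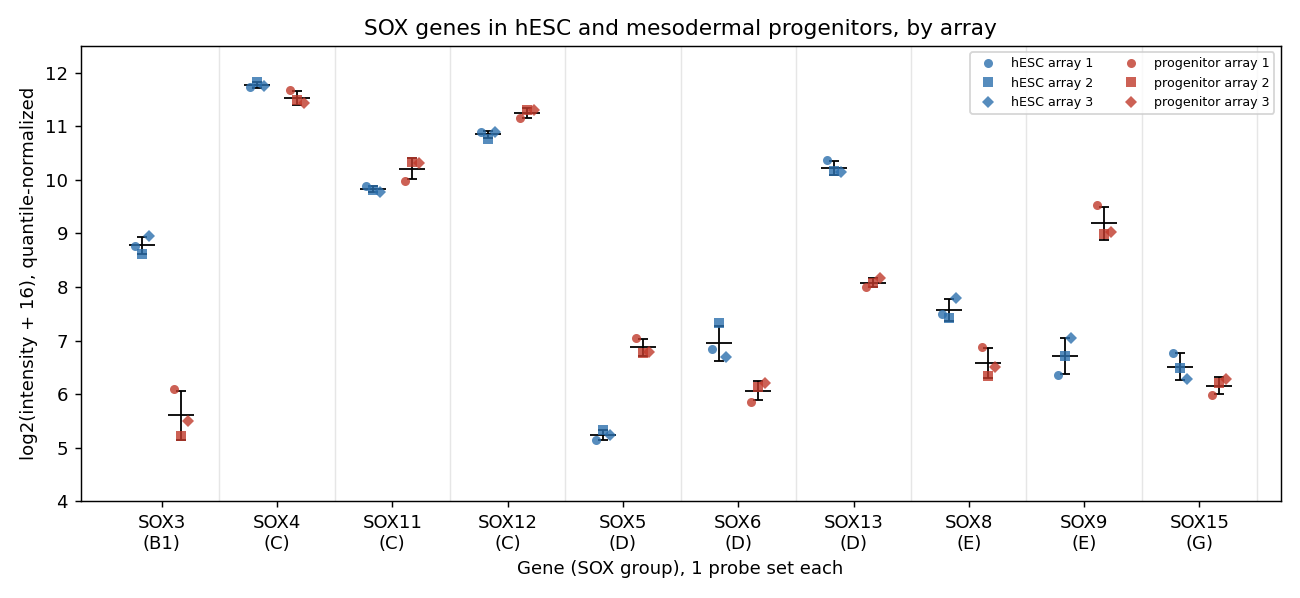
Level of each of the 10 SOX genes on the 6 arrays, as quantile-normalized log2(intensity + 16) of 1 probe set per gene. Points are arrays, the black dash is the group mean and the bar is 1 SD (n = 3). Levels may be compared between groups of a gene, not between genes. SOX3 and SOX13 lie lower and SOX5 and SOX9 higher in the progenitors, with wide gaps, and the groups of SOX15 overlap.

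Upstream sequence is shown for SOX3, SOX5 and SOX13, which had the largest changes among the genes with a window in the RefSeq promoter table (GRCh38.p14). Windows of 6 of the 10 genes matched, those of SOX3, SOX4, SOX5, SOX6, SOX12 and SOX13. Each sequence is the 250 bases before an annotated start, 5′ to 3′ on the strand of the gene, without the bases after the start. For SOX5 this start is not the outermost one. The annotated gene reaches to chr12:24562650, so that part of the SOX5 window lies within the gene. Capitals mark matches on either strand to ATTGT (the core bound by SOX proteins), CTTTG (the core bound by TCF and LEF proteins), CCAAT (the CCAAT box) and TATAA (the core of a TATA box). The marked matches do not overlap one another.
SOX3, chrX:140505070-140505319, minus strand: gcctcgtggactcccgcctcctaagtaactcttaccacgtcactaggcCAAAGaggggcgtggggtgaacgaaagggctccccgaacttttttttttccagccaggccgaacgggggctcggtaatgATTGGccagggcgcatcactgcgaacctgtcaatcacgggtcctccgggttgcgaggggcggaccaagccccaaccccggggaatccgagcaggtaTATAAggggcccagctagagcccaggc
SOX5, chr12:24562492-24562741, minus strand: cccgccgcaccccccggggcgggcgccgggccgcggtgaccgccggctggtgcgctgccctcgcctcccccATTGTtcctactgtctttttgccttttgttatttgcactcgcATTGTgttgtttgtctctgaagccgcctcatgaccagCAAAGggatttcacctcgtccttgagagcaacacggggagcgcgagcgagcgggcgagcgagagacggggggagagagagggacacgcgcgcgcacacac
SOX13, chr1:204072865-204073114, plus strand: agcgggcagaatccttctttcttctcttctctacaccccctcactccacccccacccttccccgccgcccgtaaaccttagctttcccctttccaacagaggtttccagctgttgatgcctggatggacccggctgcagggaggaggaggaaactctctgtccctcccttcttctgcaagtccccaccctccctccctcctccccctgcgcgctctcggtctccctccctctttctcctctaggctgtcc

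The SOX3 window held TATAA with its first base 27 bases before the start, ATTGG (the CCAAT box on the other strand) at 123 bases and CAAAG, the reverse of CTTTG, at 202 bases. In the SOX5 window ATTGT occurred at 179 and 137 bases before the start and CAAAG at 100 bases. The SOX13 window held none of the 4 motifs. Such letters are common. Of 35116 upstream windows of this length, 24.6% held ATTGT, 42.1% CTTTG, 32.0% CCAAT and 18.9% TATAA, each on either strand. The windows of SOX3, SOX5 and SOX13 held 17, 27 and 8 CpG dinucleotides, against a median of 11 over all windows. These matches describe the sequence only, and nothing on the arrays measured binding.

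SOX3 fell most of the 10 genes. This group B1 factor shares its DNA-binding domain and many targets with SOX2. Its deposited intensity was 50.5, 19.9 and 27.5 on progenitor arrays 1, 2 and 3 and 419.9, 373 and 470.4 on hESC arrays 1, 2 and 3. The groups were far apart, and progenitor arrays 2 and 3 lay below the median of all probe sets on their array. The log2 change was -3.17 (95% confidence interval -3.69 to -2.66, adjusted p = 2.32e-05), 9.02-fold on this scale. A second probe set of SOX3, 1553802_a_at, lay below the array median on all 6 arrays, and under 16 on 5 of them. Its change of -0.50 did not pass (adjusted p = 0.161), and without progenitor array 1 it did (-0.80, adjusted p = 0.00438). Averaged over its probe sets, SOX3 differed by -1.83 (adjusted p = 0.000287).

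The group C genes were bright in both cell states, and their differences were small. SOX11, a factor of mesenchymal and neuronal precursors, had intensities of 988, 1229 and 1227 in the progenitors and 949, 919 and 861 in hESC on the probe set that stands for it. Its lowest progenitor array lay just above the highest hESC array, with a log2 change of 0.39 (interval 0.12 to 0.65, adjusted p = 0.0267). With 5 arrays this call was lost in all but 1 case: the change was 0.33 without progenitor array 2 or 3, with adjusted p = 0.0974 and 0.0999, and 0.41, 0.38 and 0.36 without hESC array 1, 2 or 3, with adjusted p = 0.0552, 0.0644 and 0.0702. Without progenitor array 1 it was 0.50 (adjusted p = 0.00372). The other probe sets of SOX11 also passed. 204913_s_at was at 461, 411 and 391 in the progenitors against 211, 216 and 265 in hESC, a change of 0.80 (adjusted p = 0.00158), which kept its call with any array left out. 204914_s_at, at 1052, 1081 and 1107 against 869, 909.6 and 722, changed by 0.43 (adjusted p = 0.0132), a call lost when progenitor array 3 was left out (0.41, adjusted p = 0.0546) and with centring on gene medians (0.23, adjusted p = 0.148).

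SOX12, the third gene of group C, had intensities of 2213, 2418 and 2421 in the progenitors and 1946, 1829 and 1851 in hESC. The arrays of the groups did not overlap, and the log2 change was 0.40 (interval 0.20 to 0.61, adjusted p = 0.00697). Its dimmer probe set 228358_at rose by 0.66 (adjusted p = 0.0207), a call lost without progenitor array 2 or 3 or hESC array 1 or 2, at changes of 0.53, 0.60, 0.63 and 0.61 and adjusted p = 0.0696, 0.073, 0.0743 and 0.0687. Over all alternative settings of the fit this call was lost in 6 and kept in 11. On the probe sets that stand for SOX11 and SOX12, the calls hung on the scaling of the arrays. SOX11 probe set 204913_s_at kept its call in all 17 alternative settings run for it, those of scaling among them. With arrays centred on gene medians, which puts the median change of all genes at -0.15, SOX11 and SOX12 both stood at 0.18 and did not pass (adjusted p = 0.249 and 0.137). With arrays scaled on their hybridization controls, where that median is 0.32, both rose, by 0.84 and 0.85.

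SOX4, the remaining group C gene, acts in heart outflow tract, lymphocyte and neuronal development. Intensities of its brightest probe set were 3224, 2758 and 2678 in the progenitors and 3468, 3748 and 3380.4 in hESC. The progenitor arrays all lay lower, by a log2 difference of -0.23 (interval -0.45 to -0.01) that did not pass (adjusted p = 0.0808). It passed without progenitor array 1 (-0.31, adjusted p = 0.0265), and with scaling on hybridization controls its sign turned (0.23, adjusted p = 0.14). Over all alternative settings of the fit SOX4 gained a call in 7, stayed without one in 11 and changed sign in 1. Of the 6 probe sets of SOX4, 201416_at fell, by 0.54 (adjusted p = 0.00452), with intensities of 1793, 1576 and 1569 against 2628, 2748 and 2258. With scaling on hybridization controls it did not pass (-0.10, adjusted p = 0.536). The probe set 1567906_at rose, by 0.52 (adjusted p = 0.0194), from 48.1, 33.8 and 44.6 in hESC to 58.5, 56.6 and 70.4 in the progenitors. That call was lost without progenitor array 3 (0.44, adjusted p = 0.0743) and with centring on gene medians (0.28, adjusted p = 0.114). The other 4 lay between -0.56 and -0.23 and did not pass. Of these, 213668_s_at passed without progenitor array 1 (-0.81, adjusted p = 0.00316), where its intensity of 423 stood against 243 on both other progenitor arrays and 385 to 457 in hESC. The same probe set gained a call in 6 alternative settings in all.

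**Figure D2:**
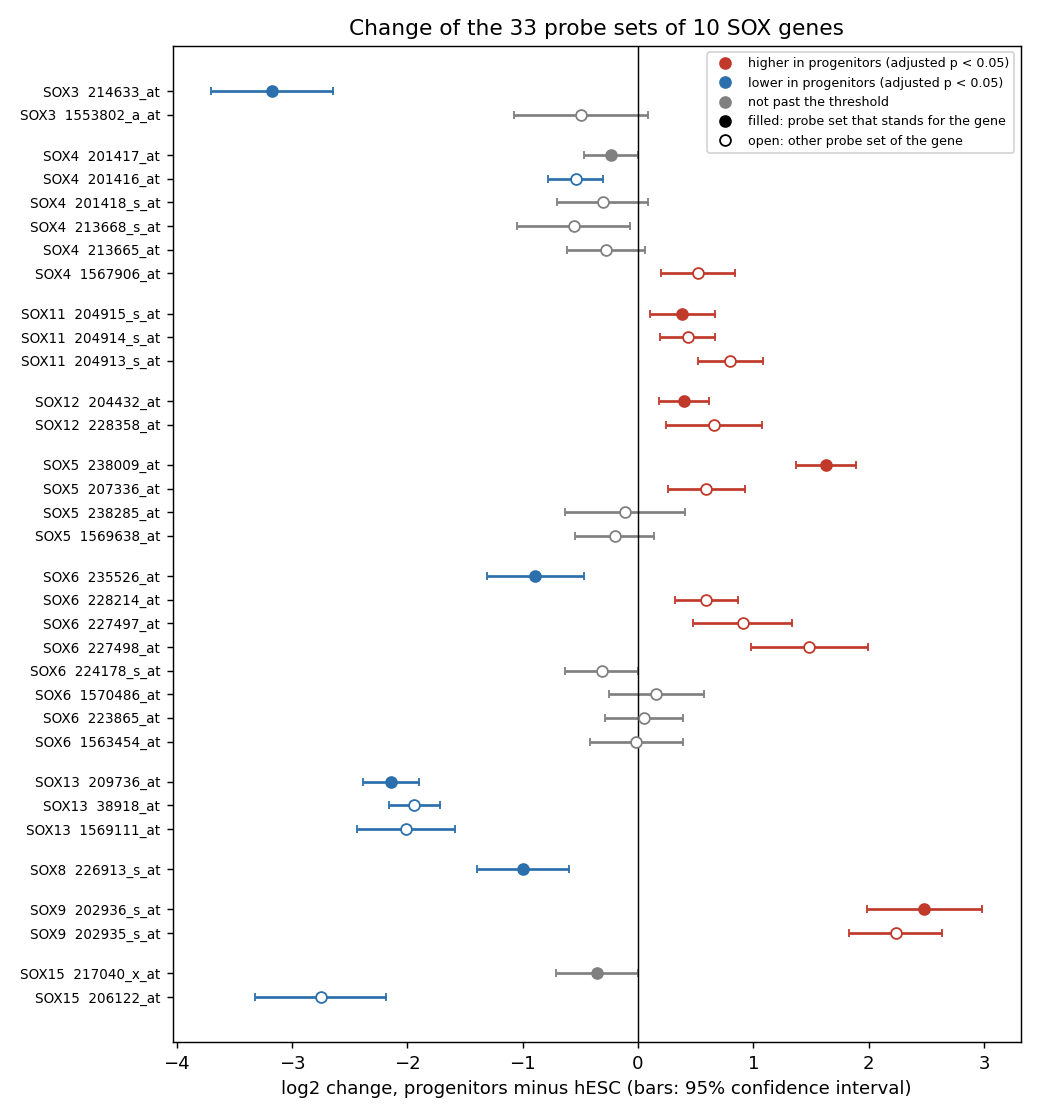
Log2 change of each of the 33 probe sets (progenitors minus hESC) with its 95% confidence interval, grouped by gene. Red marks probe sets higher and blue those lower in the progenitors at an adjusted p under 0.05, grey those that did not pass, and a filled circle the probe set that stands for the gene. All probe sets of SOX9, SOX11, SOX12 and SOX13 lie on 1 side of 0, while SOX4 and SOX6 have called probe sets on both sides.

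Among the group D genes, SOX13 fell and SOX5 rose. SOX13, a factor of T cell lineages and embryonic tissues that can bind TCF proteins, had intensities of 248, 254 and 276 in the progenitors and 1359.5, 1174 and 1116 in hESC. The highest progenitor array was far below the lowest hESC array, with a log2 change of -2.14 (interval -2.38 to -1.91, adjusted p = 3.17e-06), 4.42-fold on this scale. All 3 probe sets of SOX13 fell. 38918_at, at 171, 148.5 and 167 against 696, 689.6 and 612, changed by -1.94, and 1569111_at, at 9.30, 9.99 and 12.4 against 104, 121 and 65.9, by -2.02. The latter was under 16 on the progenitor arrays, and its size followed the pseudocount, with -2.97 at a pseudocount of 1 and -1.07 at 64, where 209736_at stood at -2.21 and -1.97.

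SOX5, a partner of SOX9 in cartilage, had intensities of 118, 90.8 and 92.4 in the progenitors and 20.5, 26.8 and 21.7 in hESC on its brightest probe set. All hESC arrays lay below their array median there, and all progenitor arrays above. The log2 change was 1.63 (interval 1.38 to 1.88, adjusted p = 1.71e-05), 3.10-fold. The size depended on the pseudocount, with 2.17 at a pseudocount of 1 and 0.95 at 64. A dim probe set, 207336_at, at 18.9, 9.06 and 10.7 in the progenitors and 4.29, 4.20 and 2.16 in hESC, rose by 0.59 (adjusted p = 0.0131). The remaining probe sets of SOX5, 238285_at and 1569638_at, were under 16 on all 6 arrays and did not pass, at -0.11 and -0.20. On the mean of the 4 probe sets SOX5 rose by 0.48 (adjusted p = 0.00289).

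SOX6, the other partner of SOX9 in cartilage and a repressor in red cell and muscle development, had called probe sets in both directions. The brightest, 235526_at, was at 40.0, 51.4 and 55.1 in the progenitors and 101, 145 and 85.6 in hESC. It fell by 0.89 (interval -1.30 to -0.47, adjusted p = 0.00451), without overlap of the groups. With scaling on hybridization controls the change was -0.51, and at a pseudocount of 64 it was -0.58, both past the threshold. By contrast, 227498_at was at 55.7, 44.7 and 33.5 in the progenitors and 3.59, 15.5 and 2.68 in hESC, and it rose by 1.49 (adjusted p = 0.00132). Another that rose, by 0.91 (adjusted p = 0.00617), was 227497_at, with intensities of 39.9, 38.6 and 29.0 against 7.10, 22.6 and 12.1. The third was 228214_at, at 46.4, 38.3 and 32.5 against 25.9, 21.7 and 21.2, with an increase of 0.59 (adjusted p = 0.0056). These 4 calls held with any array left out. The sizes of the 3 that rose depended on the pseudocount, and 227498_at stood at 2.90 with a pseudocount of 1 and 0.65 with 64. The other 4 probe sets, dim on all arrays, lay between -0.31 and 0.16 and did not pass, but 224178_s_at passed without hESC array 2 (-0.42, adjusted p = 0.0397). Averaged over all 8 probe sets, SOX6 differed by 0.25 and did not pass (adjusted p = 0.0722). The direction of SOX6 as a gene therefore depended on the probe set, and which transcripts each probe set reads was not tested.

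The group E genes moved apart. SOX9, which drives cartilage, testis and neural crest development, had intensities of 729, 491 and 500.7 in the progenitors and 69.0, 93.3 and 113 in hESC. Every progenitor array was far above every hESC array, array 1 most of all, and the log2 change was 2.48 (interval 1.99 to 2.97, adjusted p = 6.14e-05), 5.59-fold. Its second probe set, 202935_s_at, was at 199, 119 and 121 against 19.8, 17.1 and 18.5 and rose by 2.24 (adjusted p = 7.22e-05). Leaving out any array kept the change of SOX9 between 2.30 and 2.65. SOX8, which overlaps with SOX9 in function in gonad and neural crest, has 1 probe set, at 103, 62.5 and 71.8 in the progenitors and 161, 157 and 199 in hESC. It fell by 0.995 (interval -1.38 to -0.60, adjusted p = 0.00192). With scaling on hybridization controls that change was -0.54, still past the threshold. In both genes progenitor array 1 was the highest of its group, which for SOX8 put it nearest to hESC.

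SOX15, the group G gene, is known from embryonic stem cells and muscle precursors. Its brightest probe set, 217040_x_at, whose suffix marks probes that can match other transcripts, was at 45.1, 55.7 and 59.4 in the progenitors and 95.4, 78.8 and 60.8 in hESC. After normalization the groups overlapped, and the difference of -0.35 (interval -0.70 to -0.01) did not pass (adjusted p = 0.0864), although without hESC array 3 it did (-0.48, adjusted p = 0.0333). The other probe set, 206122_at, was at 14.02, 19.7 and 8.62 against 197, 134 and 251. It fell by 2.75 (SE 0.24, adjusted p = 0.000127), with every progenitor array far below every hESC array, and by 1.70 at a pseudocount of 64. In a fit restricted to probe sets specific to 1 transcript by their suffix, 206122_at stood for SOX15, and the gene was called lower (adjusted p = 6.42e-05).

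Progenitor array 1 differed from arrays 2 and 3 in several of these genes. SOX3 was higher there than the mean of the other progenitor arrays by 0.75 on the log2 scale, SOX9 by 0.52, SOX8 by 0.47, SOX5 by 0.27 and SOX4 by 0.22. SOX11, SOX6 and SOX15 were lower, by -0.34, -0.31 and -0.27, and SOX12 and SOX13 by -0.15 and -0.12. Over all genes the median size of this difference was 0.14, and in 5% of genes it exceeded 0.55. Of 16 endothelial markers 15 were higher on array 1, by a median of 1.32, with CDH5 (VE-cadherin) higher by 3.00. Their mean level ranged from 6.51 to 7.82 on the progenitor arrays and from 5.50 to 5.57 on the hESC arrays. Of the pluripotency markers 6 of 9 were higher on array 1, by a median of 0.16, and SOX2 by 0.91. The part of these markers in the SOX values was not tested. Without array 1, SOX3 changed by -3.41, SOX9 by 2.30, SOX8 by -1.14 and SOX5 by 1.53, all past the threshold.

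**Figure D3:**
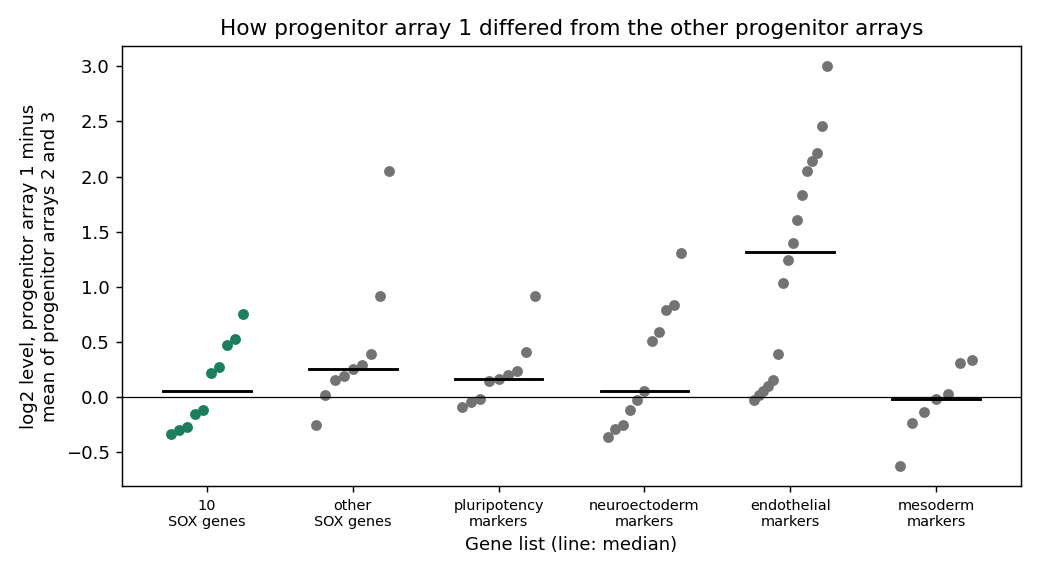
Level on progenitor array 1 minus the mean of progenitor arrays 2 and 3, on the log2(intensity + 16) scale, for the 10 SOX genes (green) and other lists (grey). Each point is a gene and each line the median of its list. The SOX genes spread from -0.34 (SOX11) to 0.75 (SOX3) around a median of 0.05, while the endothelial markers have a median of 1.32.

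Among 9 other SOX genes 3 rose and 1 fell, 5 were not past the threshold, and the list had a median change of 0.23. The pluripotency factor SOX2 had the largest decrease of the family, at 640 on progenitor array 1, 329 and 337 on arrays 2 and 3, and 4620 to 5284 in hESC, a log2 change of -3.52 (SE 0.24). SOX7 and SOX17, factors of endothelium and endoderm, rose by 3.62 and 2.36, and SOX7 by 2.92 without progenitor array 1. SOX10, the third group E gene, rose by 0.36 (adjusted p = 0.0435) at levels below the array median on all arrays. This call was lost when any array but hESC array 3 was left out, with changes of 0.26 to 0.40 and adjusted p of 0.0692 to 0.112. Among all alternatives it was lost in 13 and kept in 4, and with centring on gene medians SOX10 stood at 0.14 (adjusted p = 0.299). SOX1, SOX14, SOX18, SOX21 and SOX30 lay between -0.15 and 0.32, were below the array median on all arrays and did not pass. Under the alternatives SOX1 and SOX14 gained a call in 2 settings each and SOX18 in 3. Among noncoding RNAs named for SOX loci, SOX2-OT fell by 1.53 and SOX21-AS1 by 0.62 (-3.18 and -1.57 at a pseudocount of 1). SOX9-AS1 rose by 0.47, from 9.94, 18.4 and 14.1 in hESC to 26.7, 21.8 and 20.7 in the progenitors. SOX21-AS1 and SOX9-AS1 lay below the array median on all 6 arrays. SOX2-OT was at 2.12 to 4.28 in the progenitors, and its probe set has the suffix for probes that can match other transcripts. The call of SOX9-AS1 was lost on the average over its probe sets (0.25, adjusted p = 0.137) and with centring on gene medians (0.23, adjusted p = 0.166). SOX1-OT differed by 0.04 and did not pass.

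**Figure D4:**
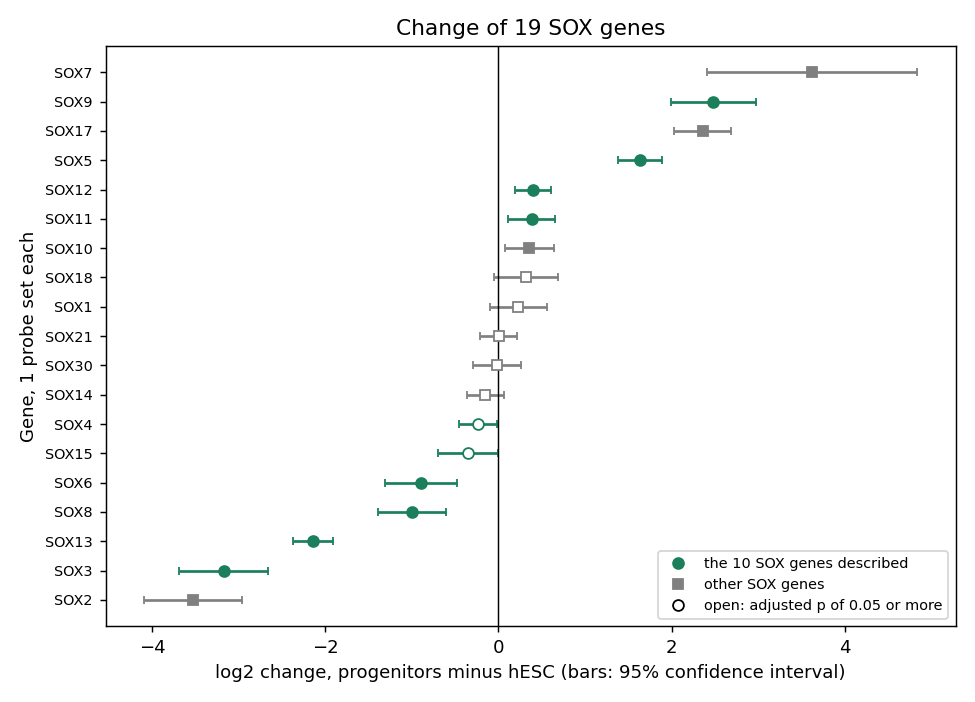
Log2 change of 19 SOX genes (progenitors minus hESC, 1 probe set each) with its 95% confidence interval, ordered by size. Green circles are the 10 genes described, grey squares other SOX genes, and open symbols genes that did not pass. SOX2 and SOX3 stand at the lower end, at -3.52 and -3.17, and SOX7, SOX9 and SOX17 at the upper end.

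Relatives and target groups of the SOX factors were counted in the same way. Of the HMG-box partners of beta-catenin, LEF1 rose by 6.22 (2.79 averaged over its probe sets), TCF7L1, a repressor of the stem cell state, fell by 2.03, and TCF7L2 was not called, at 0.03. Scaling on hybridization controls put TCF7L2 at 0.48, past the threshold. The 18 cartilage genes listed for SOX9, SOX5 and SOX6 included 7 that rose and 4 that fell, around a median of 0.05. Binding of these factors to the listed genes was not measured here. HAPLN1, a link protein of cartilage matrix, rose by 7.12 and the collagen chain COL9A2 by 3.56 (2.18 averaged over its probe sets), while CNMD, which encodes chondromodulin, fell by 4.53. COL2A1, the main cartilage collagen, chosen after its value was seen, fell by 0.76 (adjusted p = 0.0217), a call lost without progenitor array 2 or 3 or hESC array 1 or 3, at changes of -0.58, -0.68, -0.75 and -0.70, on the average over its probe sets (-0.43, adjusted p = 0.0914) and with scaling on hybridization controls (-0.27, adjusted p = 0.275). The same call was lost with progenitor arrays 2 and 3 averaged as 1 array (-0.64, adjusted p = 0.0624). The 18 neural crest genes likewise divided into 7 higher, 4 lower and 7 short of the threshold, around a median of 0.36. The transcription factors MSX1, SNAI2 and MSX2 rose by 6.99, 6.21 and 4.21, and the receptor ERBB3 fell by 2.56. The sizes depended on the probe sets used, with 3.16 for MSX1 and 1.11 for MSX2 in the fit restricted to probe sets specific to 1 transcript, and -1.005 for ERBB3 averaged over its probe sets, all past the threshold. SOX10 is counted on that list too.

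Of 11 neuronal genes known downstream of SOX4 and SOX11, 4 were lower, 2 were higher and 5 were short of the threshold (median -0.06). The LIM homeodomain factor ISL1, also a gene of cardiac mesoderm, rose by 6.21, and GAP43, a growth cone protein, fell by 1.54 (-1.001 averaged over its probe sets). MAP2, a microtubule protein, fell by 1.39, with its level on progenitor array 1 higher by 1.68 than on the others, and that call was lost when any array other than progenitor array 1 was left out (adjusted p of 0.0565 to 0.115). It was lost too with progenitor arrays 2 and 3 averaged as 1 array (-1.12, adjusted p = 0.0949) and at a pseudocount of 1 (-1.93, adjusted p = 0.0702). Of 11 neuroectoderm markers 2 rose, 2 fell and 7 did not pass. HESX1, a forebrain and pituitary factor, fell by 2.78, LHX2 rose by 1.67 (0.84 at a pseudocount of 64), and OTX2 fell by 0.80. The call of OTX2 was lost without progenitor array 2 or 3 or hESC array 2, at -0.66, -0.68 and -0.74, and with scaling on hybridization controls (-0.34, adjusted p = 0.12). Averaging progenitor arrays 2 and 3 as 1 array also lost it (-0.67, adjusted p = 0.0528). PAX6, a defining marker, did not pass, at 0.27, and was below the array median on 5 of 6 arrays. SOX1, the other defining marker, was below it on all 6.

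As a check of the labels, NCAM1 rose by 3.46 and EPCAM fell by 2.33, in the direction of the sort. Averaged over its probe sets NCAM1 stood at 1.39. All 7 mesoderm markers rose, APLNR by 7.61, HAND1 by 7.54 and GATA6 by 6.63 (3.32 averaged over its probe sets), and all 9 pluripotency markers measured fell, led by LEFTY1 at -5.33, PRDM14 at -4.85 and NANOG at -4.17. Of 16 endothelial markers 7 rose, 0 fell and 9 did not pass in limma, with 0 lower at an unadjusted p under 0.05, and LMO2 (3.97) and CDH5 (3.85) led. CDH5, at an intensity of 2.38 or less on the hESC arrays, stood at 6.40 with a pseudocount of 1 and 2.30 with 64. Averaged over its probe sets LMO2 stood at 2.05. LMO2 did not pass in the fit restricted to probe sets specific to 1 transcript (0.13). Of 8 endoderm markers 3 rose, 2 fell and 3 did not pass. HHEX rose by 2.67 and was higher by 2.48 on progenitor array 1, GSC rose by 0.84 (0.36 at a pseudocount of 64), and AFP fell by 0.58, a call lost with scaling on hybridization controls (-0.04, adjusted p = 0.837). FOXA2, a defining endoderm marker, rose by 0.50 but was below the array median on all 6 arrays, and its call was lost with centring on gene medians (0.26, adjusted p = 0.122) and on the average over its probe sets (0.12, adjusted p = 0.294).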

How the data were processed

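The authors' deposited table gives 1 intensity per probe set and array on a linear scale, as the values show; summarisation, background correction and scaling were not stated in the sources used here. A value of 1 stands in 2.15% of entries. Median intensities were 31.0 to 31.2 (progenitors) and 33.1 to 36.1 (hESC), and the number of arrays limits the precision. Of 54675 probe sets, 62 are controls, 41097 had 1 annotated gene and 1801 several, and 11777 are unnamed here. For 41043 probe sets with 1 gene the symbol was taken through the gene identifier, whether or not it differed from the annotated one. From the deposited intensities, log2(intensity + 16) was computed and quantile-normalized. A log2 change understates the change of dim genes.

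Genes and, separately, probe sets were compared by limma (lmFit, eBayes) 3.58.1 (R 4.3.3), two-sided, with Benjamini-Hochberg adjustment over all features. The test was tested on simulated data. Arrays of a group correlated at 0.991 to 0.997 across genes, which are not independent replicates. Between progenitor arrays 2 and 3 the number of genes over 2-fold apart was 7, against 180 and 208 for either with array 1. Counting these arrays as separate may therefore overstate the replication. With both averaged as 1 array 8095 genes were called, against 9463 in the main fit.

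The members and lists were chosen with earlier results of these data known. Named beyond the members were all other SOX genes, SOX-named noncoding RNAs, TCF and LEF factors, the sort antigens, and of each other list the 3 largest changes past the threshold, the largest opposite one and the markers CDH5, PAX6, NANOG and FOXA2. Some listed genes are not analysed here. Alternatives covered scaling, pseudocount, dim-probe filters, variance models, array weights, the replicate block, averaging progenitor arrays 2 and 3, the choice of probe set and leaving out each array. Figures used matplotlib 3.10.9 under Python 3.11.15.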

Additional observations from a re-analysis of the deposited data

How the results depend on the processing

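SOX3, SOX5, SOX8, SOX9 and SOX13 kept their direction and their call under every alternative that could be run for them, 18 or 19 each. Of 184 values of the 10 genes under the alternatives, 161 kept direction and call, 9 lost the call, 12 gained one and 2 changed sign. SOX4 gained a call in 7 settings and SOX15 in 5. Leaving out each array in turn gave 7 to 9 of the 10 genes called, 3 to 4 higher and 4 to 5 lower, 17 to 24 of the 33 probe sets, 9 to 13 higher and 8 to 11 lower, and 7905 to 9338 genes in all. With centring on gene medians 2 genes were called higher, and 8 probe sets were higher and 15 lower. The share of called genes that were higher was 55.8% with quantile normalization, 37.3% with centring on gene medians and 81.9% with scaling on hybridization controls. In the fit restricted to probe sets specific to 1 transcript 2 genes were higher, and 7 of the 10 genes could be tested. SOX8, SOX9 and SOX11 had no probe set of that kind, so this setting says nothing about them. With array weights 14 probe sets were lower. With the replicate number as a block 7 of the 10 genes and 21 of the 33 probe sets were called, and SOX11 was lost (adjusted p = 0.0506). Deviations of arrays sharing a replicate number correlated at -0.02, 0.03 and -0.04. Whether samples of the same number shared a culture or batch cannot be told from these values or the labels.

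Signs turned as follows, none past the threshold. With scaling on hybridization controls SOX4 stood at 0.23, its probe sets 201418_s_at at 0.18 and 213665_at at 0.044, SOX6 probe set 1563454_at at 0.12 and SOX30 at 0.093. On the mean of probe sets SOX6 stood at 0.25, SOX30 at 0.15 and TCF7L2 at -0.0024. With array weights SOX5 probe set 238285_at stood at 0.050, SOX6 probe set 1563454_at at 0.20, PAX6 at -0.15, SOX21 at -0.059 and TCF7L2 at -0.0049. With centring on gene medians SOX6 probe sets 1570486_at and 223865_at stood at -0.053 and -0.14, SOX1-OT at -0.12, SOX21 at -0.17 and TCF7L2 at -0.19. Without normalization SOX21 stood at -0.026 and TCF7L2 at -0.046, at a pseudocount of 1 SOX21 at -0.015, and with progenitor arrays 2 and 3 averaged SOX30 at 0.033. Leaving out arrays gave ranges across 0 for SOX5 probe set 238285_at (-0.29 to 0.13), SOX6 probe sets 1563454_at (-0.17 to 0.13), 1570486_at (-0.010 to 0.33) and 223865_at (-0.069 to 0.18), PAX6 (-0.011 to 0.44), SOX1-OT (-0.046 to 0.11), SOX21 (-0.061 to 0.059), SOX30 (-0.11 to 0.062) and TCF7L2 (-0.038 to 0.075). The cause was not tested.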
